A study of Mus musculus with 35 samples.

Results

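Mouse genes of the urea cycle and of amino acid breakdown were taken as a list of 54 named enzymes and carriers, out of 55413 genes in the count table. The list was drawn up by name and pathway, but earlier results of these data were known when it was chosen. The counts below are therefore a description of a list not blind to the data. It falls into 11 groups by amino acid, and all 54 genes passed the filter on low counts. The question was how the RNA of each gene in liver differed between untreated mice, mice given a liver carcinogen, and carcinogen-treated mice that also received an ASO (antisense oligonucleotide, a synthetic stretch of nucleic acid made to bind a chosen RNA) against Smyd3, which encodes a lysine methyltransferase. All 21 mice were C57Bl6, and the labels used here do not give their sex. The untreated group held 5 mice killed at day 260 after birth, and their samples are labelled normal liver. Every other mouse had received diethylnitrosamine (DEN), a carcinogen that hepatocytes activate, as 1 dose of 25 mg/kg into the peritoneum at day 14, and its sample is labelled as a DEN tumour of the cell type hepatocellular carcinoma. Of these, 4 were killed at day 133 with no ASO (called P133 here). A further 6 received 50 mg/kg of a control ASO and another 6 the same dose of Smyd3-ASO, with 2 injections a week from day 133 until day 260. RNA was made from pieces of liver, and no label says how much of a piece was tumour. Nothing in the labels states whether mice of a group shared a litter or a day of killing. The P133 mice differed from the untreated mice in DEN and in age, the ASO groups differed from them in DEN and in ASO injections, and the control-ASO mice differed from the P133 mice in age and in ASO injections. Within each of these comparisons the named differences cannot be told apart, and only Smyd3-ASO over control ASO compares groups that differ in 1 labelled factor.

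Breaking down an amino acid removes its amino group, which leaves as ammonia or is handed to glutamate and aspartate, while the carbon skeleton goes on to glucose, ketone bodies or one-carbon units. Ammonia is toxic, and the liver turns it into urea, mainly in hepatocytes near the portal vein, while hepatocytes around the central vein catch what is left as glutamine. The liver also carries most of the body's breakdown of phenylalanine, tyrosine, tryptophan, histidine and methionine, and many of its enzymes respond to glucocorticoids, glucagon, feeding and the hour of the day, through factors such as C/EBP alpha, HNF4 alpha and the glucocorticoid receptor. Levels below are CPM, a gene's counts as a share of all counts of the mouse on a common scale, after scaling between mice with TMM. Values are given mouse by mouse, in the order of the mouse numbers, for the untreated and P133 groups, and as the lowest, the median and the highest of 6 mice for each ASO group. Changes are log2 ratios with their standard error (SE), tested with edgeR's quasi-likelihood test, and every adjusted p is Benjamini-Hochberg over 15297 genes. "Rose" and "fell" are used only where that adjusted p was at most 0.05. In bulk samples fewer hepatocytes and less RNA per hepatocyte cannot be told apart.

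The 250 bases before each annotated start in RefSeq's promoter table (build GRCm38.p6) were matched by symbol to 43 of the 54 genes, in 49 windows, and searched for 6 short letter strings on both strands. The core recognised by C/EBP factors, TTGCNNAA, stood in windows of 4 genes (Aass, Hal, Hgd and Prodh2), and in 9.56% of all 32851 windows. The letters GTTAAT, part of the site of HNF1, stood in windows of 5 genes (Bckdhb, Etnppl, Ftcd, Haao and Prodh2), against 6.43% of all windows, and the D-box TTATGNAA read by DBP stood in that of Otc alone, against 3.07% of all. TATAAA stood in windows of 4 genes (Ftcd, Hal, Hgd and Tdo2), against 12.4% of all, and no member window held the cAMP response element TGACGTCA or the HNF4 letters CAAAGTCC. Of the genes that fell in control-ASO over untreated mice and whose windows held a C/EBP, HNF1 or D-box match, the 3 with the largest change were Haao, Etnppl and Hgd, chosen after their values were seen. Their windows are printed below 5′ to 3′ on the gene's strand, with the matches in capitals, because these genes recur in the results. A match describes letters only. The Haao bases are chr17:83846791-83847040 on the minus strand, with the HNF1 letters read on the opposite strand 41 to 36 bases before the start. The Etnppl bases are chr3:130617325-130617574 on the plus strand, with the HNF1 letters 6 to 1 bases before that window's start. RefSeq has another Etnppl window, chr3:130617198-130617447, which ends just before the start of the GENCODE gene model and does not hold these letters. The printed Haao and Etnppl windows belong to starts inside the GENCODE spans of those genes. The Hgd bases are chr16:37579903-37580152 on the plus strand, with the C/EBP letters 49 to 42 and the TATA letters 139 to 134 bases before the start, both on the opposite strand and not overlapping.
Haao: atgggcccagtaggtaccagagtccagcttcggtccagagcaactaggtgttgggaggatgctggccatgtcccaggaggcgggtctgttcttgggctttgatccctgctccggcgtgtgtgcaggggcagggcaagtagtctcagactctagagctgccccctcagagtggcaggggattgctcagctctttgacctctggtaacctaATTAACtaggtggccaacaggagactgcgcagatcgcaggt
Etnppl: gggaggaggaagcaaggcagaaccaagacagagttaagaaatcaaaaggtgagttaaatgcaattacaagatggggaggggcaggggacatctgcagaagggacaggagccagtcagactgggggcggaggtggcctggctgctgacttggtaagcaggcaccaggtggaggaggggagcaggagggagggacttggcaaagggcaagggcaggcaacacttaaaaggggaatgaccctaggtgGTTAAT
Hgd: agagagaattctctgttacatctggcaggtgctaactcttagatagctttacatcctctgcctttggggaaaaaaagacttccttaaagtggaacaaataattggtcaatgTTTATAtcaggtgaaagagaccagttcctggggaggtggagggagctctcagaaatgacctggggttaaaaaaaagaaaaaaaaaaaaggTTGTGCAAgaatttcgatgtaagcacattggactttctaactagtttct

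Some properties of the whole samples move with the groups. The counts of a mouse summed to 10186780 to 13116012 in the untreated group, with P133 mice at 4556484 to 6447397, control-ASO mice at 6789715 to 13805881 and Smyd3-ASO mice at 6358080 to 20258619. Smyd3 lay at 0 to 0.757 CPM in the Smyd3-ASO mice and at 3.11 to 4.62 CPM in the control-ASO mice. The summed level of 8 hepatocyte markers was 76725 to 128613 CPM in untreated mice, with P133 mice at 47563 to 51975, control-ASO mice at 56691 to 78369 and Smyd3-ASO mice at 26266 to 50761 CPM. Single markers did not all follow this sum. Over untreated, 1 of the 8 rose and 6 fell with control ASO, and 1 rose and 7 fell with Smyd3-ASO. In Smyd3-ASO over control ASO 1 rose (Cyp2e1, by 1.22, adjusted p = 0.0154) and 2 fell (Alb, by 1.21, adjusted p = 0.00139, and Ttr). The shares of all genes are given in the next paragraph. The sum of 6 bile duct markers was 14.8 to 30.7 CPM in untreated mice, with P133 mice at 22.6 to 50.4, control-ASO mice at 108 to 227 and Smyd3-ASO mice at 43.1 to 72.6 CPM. The rise in the control-ASO mice was carried by Tspan8, Sox9 and Spp1, while the defining markers Krt19 and Krt7 stayed at or under 0.340 CPM there. The sum of 8 immune cell markers was 49.0 to 76.8 CPM in untreated mice, with P133 mice at 85.8 to 117, control-ASO mice at 41.8 to 103 and Smyd3-ASO mice at 85.4 to 145 CPM. Dbp, a gene whose RNA swings with the daily clock, was low in the P133 mice, the Smyd3-ASO mice, untreated mouse 5 and control-ASO mice 1 and 2, at 1.52 to 33.3 CPM. The other 8 mice lay at 92.0 to 119 CPM, and the labels do not give the hour of killing. The part of these differences in the results below was not tested. Scaling by library totals in place of TMM moved the median change of all genes by 0.845 in control ASO over untreated, 0.896 in Smyd3-ASO over untreated, 0.589 in P133 over untreated, 0.252 in control ASO over P133 and 0.0316 in Smyd3-ASO over control ASO on the log2 scale. With that scaling 65.6% of all genes were higher and 4.49% lower in control ASO over untreated. Every direction below is therefore relative to the bulk of the genes, and each called member kept its side of the all-gene median under both scalings.

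In both groups given DEN and an ASO, the list as a whole lay low against untreated mice (the colour map of all 54 genes). This is relative to the bulk of the genes, and DEN and ASO injections cannot be told apart here. In control-ASO over untreated mice 38 of the 54 genes were called, against 45.9% of all genes tested: 37 fell, 1 rose and 16 were not called, where 22.2% of all genes tested fell and 23.7% rose. The median change of the 54 genes was -0.70, against 0.06 for all genes tested, and 27 of the 54 had no overlap between the groups, where 27.5% of all genes had none. In Smyd3-ASO over untreated mice 29 were called (background 47.6%), of which 26 fell and 3 rose (background 23.2% and 24.4%), the median was -0.44 against 0.06, and 18 did not overlap (background 28.5%). In P133 over untreated mice 27 were called (background 31.6%), of which 23 fell and 4 rose (background 16.6% and 15.1%), the median was -0.26 against 0.0018, and 24 did not overlap (background 27.1%). These 3 comparisons share the untreated mice. Between the DEN groups, control ASO over P133 had 21 called genes (background 27.0%), 18 that fell and 3 that rose (background 12.6% and 14.4%), with a median of -0.38 against 0.03 and 17 without overlap (background 21.3%). Smyd3-ASO over control ASO had 15 called genes (background 26.1%), 11 that rose and 4 that fell (background 13.3% and 12.9%), with a median of 0.25 against 0.01 and 5 without overlap (background 11.1%). The counts by pathway below rest on few genes each and are to be read beside these background shares. Arg1, Prodh2, Tdo2, Sdsl and Mat1a passed in none of the 5 comparisons. Without the 3 low-Dbp mice of the untreated and control-ASO groups, the genes that fell and rose numbered 39 and 0 in control ASO over untreated (with 0 higher at an unadjusted p under 0.05), 28 and 1 in Smyd3-ASO over untreated, 27 and 5 in P133 over untreated, 22 and 2 in control ASO over P133, and 2 and 14 in Smyd3-ASO over control ASO. That leaves no low-Dbp mouse in the untreated and control-ASO groups, while every P133 and Smyd3-ASO mouse is low in Dbp. In every comparison but control ASO over untreated, Dbp level and group then cannot be told apart. With only the 2 low-Dbp control-ASO mice as controls, 0 genes of the list passed as higher in Smyd3-ASO mice in edgeR's test (6 at an unadjusted p under 0.05), while Cps1, Gldc and Bckdhb passed as lower, and 469 of all genes were called in place of 4000.

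**Figure D1:**
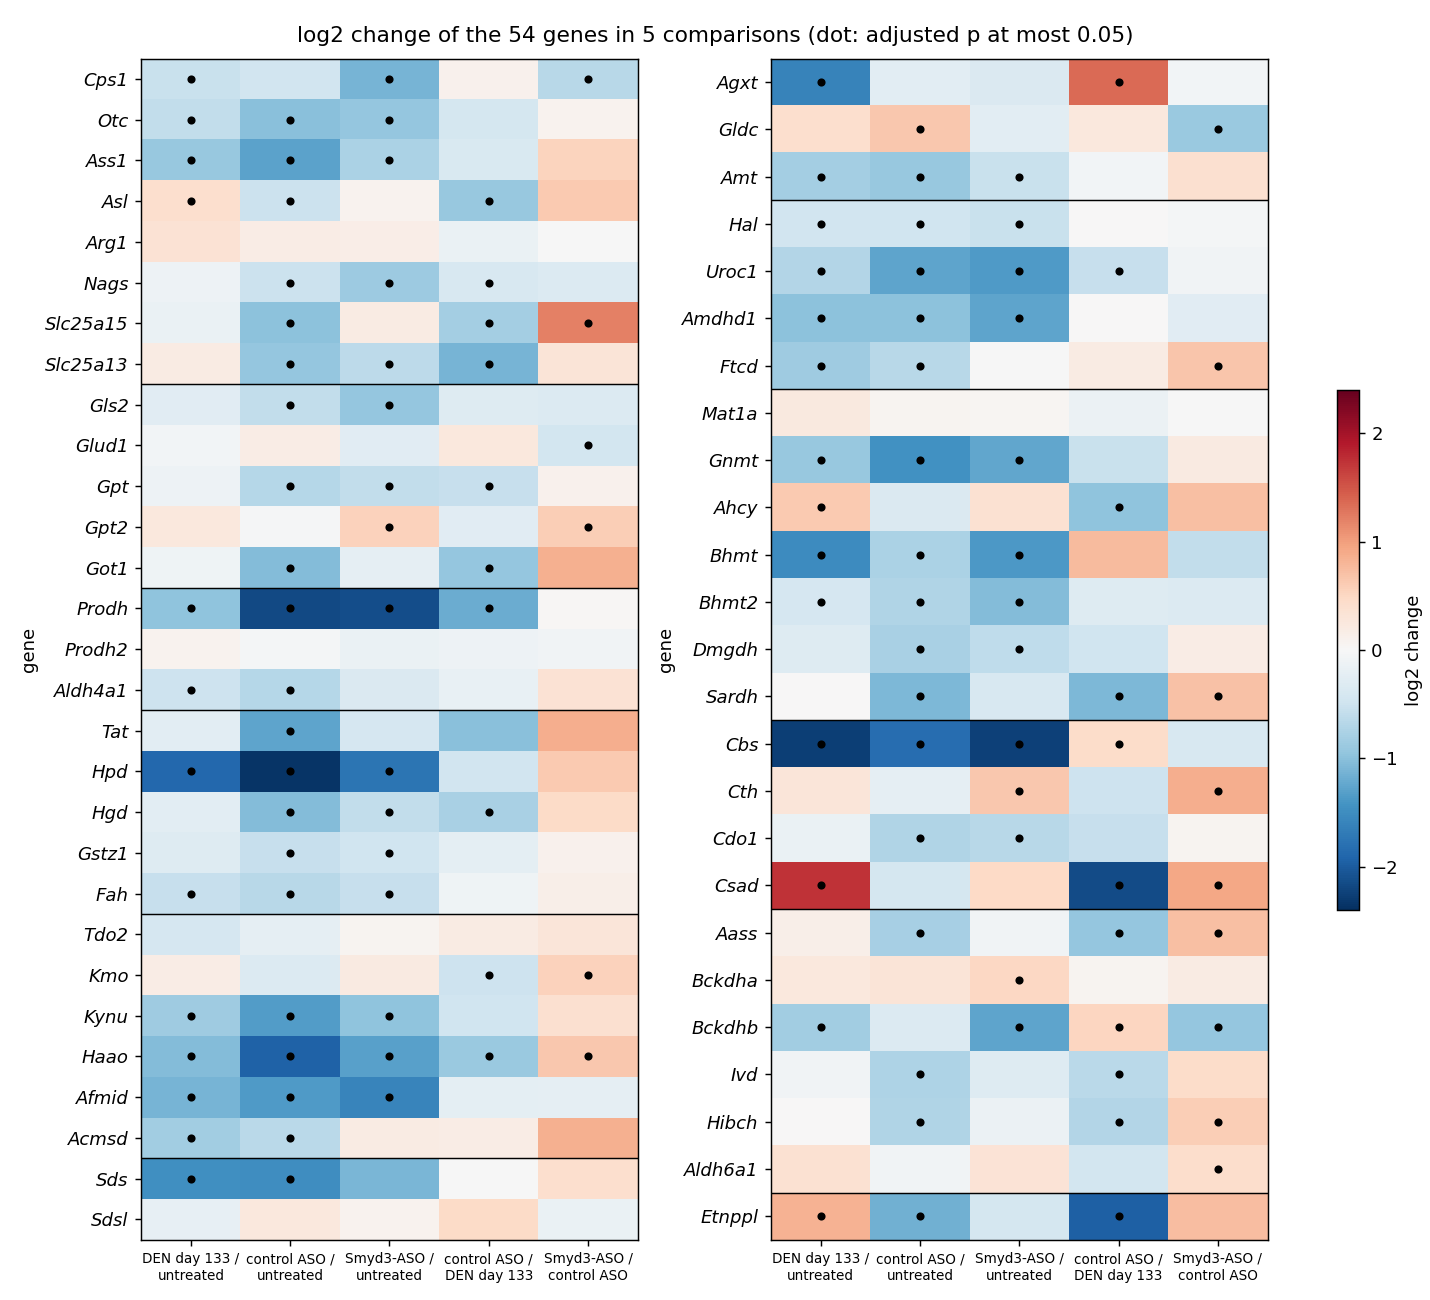
Colour map of the log2 change of each of the 54 genes (rows, grouped by pathway) in the 5 comparisons (columns), scaled with TMM, with a dot where edgeR's adjusted p was at most 0.05. In the column of control ASO over untreated 37 genes are marked lower and 1 higher, and in the column of Smyd3-ASO over control ASO 11 are marked higher and 4 lower.

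In the urea cycle Otc and Ass1 fell over untreated in the P133, control-ASO and Smyd3-ASO mice, Cps1 passed the test in the P133 and Smyd3-ASO mice and not in the control-ASO mice, and the last enzyme, Arg1 (arginase), was not called. Of 8 members, 6 fell in control ASO over untreated, 5 in Smyd3-ASO over untreated, and 3 fell and 1 rose in P133 over untreated. Cps1 (ENSMUSG00000025991, chr1:67123026-67231259, plus strand, build GRCm38), carbamoyl phosphate synthetase, fixes ammonia in the mitochondrion and commits it to the cycle. Cps1 stood at 1026, 1174, 1140.3, 1339.9 and 1078 CPM in the untreated mice and at 764, 875, 594 and 926 CPM in the P133 mice. Cps1 had a lowest, median and highest level of 583, 799.7 and 1258 CPM with control ASO and 446, 540.2 and 622 CPM with Smyd3-ASO. Every Smyd3-ASO mouse and every P133 mouse lay under the lowest untreated mouse, while the control-ASO mice spread across both ranges, with their highest value in mouse 2, which is 1 of the 2 with low Dbp. Cps1 changed by -1.12 (SE 0.16, adjusted p = 9.11e-05) in Smyd3-ASO over untreated, -0.54 (SE 0.17, adjusted p = 0.0215) in P133 over untreated and -0.45 (SE 0.21, adjusted p = 0.0866) in control ASO over untreated. In Smyd3-ASO over control ASO it changed by -0.66 (SE 0.20, adjusted p = 0.0246). The last of these calls ended without any one of control-ASO mouse 2 or Smyd3-ASO mice 1 or 2 (adjusted p = 0.0533 to 0.0568) and without the 3 low-Dbp mice (0.152), and the P133 call ended without any one of untreated mouse 4 or P133 mice 1 or 3 (adjusted p = 0.0547 to 0.0798) and with 1 fit over the 4 groups (0.0502). Nags makes N-acetylglutamate, the activator that Cps1 needs. Nags stood at 33.6, 31.3, 36.9, 31.2 and 41.3 CPM in the untreated mice and at 33.8, 31.9, 30.1 and 31.2 CPM in the P133 mice. Nags had a lowest, median and highest level of 19.4, 24.1 and 29.0 CPM with control ASO and 12.7, 18.1 and 27.0 CPM with Smyd3-ASO. All control-ASO and Smyd3-ASO mice lay below all untreated mice, by -0.52 (SE 0.13, adjusted p = 0.00544) and -0.87 (SE 0.20, adjusted p = 0.00287). The fall over P133 was -0.39 (adjusted p = 0.0493), and it ended without any one of P133 mice 1, 2, 3 or 4 or control-ASO mice 1, 2, 5 or 6 (adjusted p = 0.065 to 0.117) and without the 3 low-Dbp mice (0.12).

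Otc joins carbamoyl phosphate to ornithine to give citrulline. Otc stood at 278, 325, 341, 371 and 198 CPM in the untreated mice and at 187, 214, 183 and 221 CPM in the P133 mice. Otc had a lowest, median and highest level of 119.6, 148 and 197 CPM with control ASO and 139.98, 164 and 177 CPM with Smyd3-ASO. Untreated mouse 5, the low-Dbp mouse, was the only untreated mouse within the P133 range, and both ASO groups lay wholly below the untreated mice. Otc fell by 1.00 in control ASO over untreated (SE 0.18, adjusted p = 3.94e-04), with -0.93 (adjusted p = 4.48e-04) in Smyd3-ASO and -0.58 (adjusted p = 0.0178) in P133 over untreated, and Smyd3-ASO over control ASO gave 0.09 (adjusted p = 0.645). The P133 call ended without any one of P133 mice 1 or 3 (adjusted p = 0.0522 to 0.0554). Ass1 (ENSMUSG00000076441, chr2:31470207-31520672) adds aspartate to citrulline, which brings in the other nitrogen atom of urea. Ass1 stood at 254, 275, 235, 252 and 194 CPM in the untreated mice and at 109, 141, 121 and 143 CPM in the P133 mice. Ass1 had a lowest, median and highest level of 70.5, 97.0 and 136 CPM with control ASO and 121, 130.4 and 237 CPM with Smyd3-ASO. Untreated mice lay above all other mice except Smyd3-ASO mouse 4, which stood within the untreated range and apart from its group. Ass1 fell by 1.28 (SE 0.18, adjusted p = 6.71e-05) in control ASO over untreated and by 0.91 (SE 0.14, adjusted p = 2.21e-04) in P133 over untreated, with -0.75 (adjusted p = 0.00498) in Smyd3-ASO over untreated. Asl splits argininosuccinate into arginine and fumarate. Asl stood at 101, 79.4, 71.0, 78.9 and 71.9 CPM in the untreated mice and at 84.9, 115, 99.9 and 124 CPM in the P133 mice. Asl had a lowest, median and highest level of 36.8, 55.6 and 77.7 CPM with control ASO and 60.2, 85.1 and 122 CPM with Smyd3-ASO. The P133 mice lay above every control-ASO mouse, and the untreated mice overlapped both. Asl fell by 0.91 (SE 0.20, adjusted p = 0.00409) in control ASO over P133. Against untreated mice its change was 0.40 (adjusted p = 0.0468) at P133 and -0.52 (adjusted p = 0.0324) with control ASO, and single mice ended both calls, with adjusted p = 0.0647 to 0.15 without any one of untreated mice 2, 3, 4 or 5 or P133 mice 2, 3 or 4 and 0.0528 to 0.0916 without any one of untreated mice 1, 2 or 4 or control-ASO mice 4, 5 or 6. Arg1 releases urea from arginine. Arg1 stood at 384, 386, 402, 449 and 583 CPM in the untreated mice and at 497, 668, 487 and 592 CPM in the P133 mice. Arg1 had a lowest, median and highest level of 397, 465 and 733 CPM with control ASO and 243, 479.9 and 834 CPM with Smyd3-ASO. The 4 groups overlapped, and no comparison called Arg1, with changes from -0.16 in control ASO over P133 to 0.35 in P133 over untreated.

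Of the carriers that move the cycle's intermediates across the mitochondrial membrane, Slc25a15 differed between the ASO groups, with the largest change of the 54 members in Smyd3-ASO over control ASO. Slc25a15 (ENSMUSG00000031482, chr8:22375551-22398597), the ornithine carrier, had a lowest, median and highest level of 86.1, 142 and 197 CPM with control ASO and 258, 332 and 379.7 CPM with Smyd3-ASO, against 289, 249, 262, 252 and 336 in untreated mice and 241, 253, 263 and 229.99 in P133 mice. All 6 control-ASO mice lay below all 15 others. Slc25a15 rose by 1.20 (SE 0.19, adjusted p = 6.75e-04) in Smyd3-ASO over control ASO, fell by 0.99 (SE 0.19, adjusted p = 7.13e-04) in control ASO over untreated, and changed by 0.20 (adjusted p = 0.313) in Smyd3-ASO over untreated. Slc25a13, the aspartate and glutamate carrier that supplies Ass1, fell by 1.11 (SE 0.15, adjusted p = 1.69e-04) in control ASO over P133 and by 0.93 (adjusted p = 4.68e-04) over untreated. Smyd3-ASO mice, at 73.2, 81.2 and 102 CPM, overlapped the control-ASO mice, at 48.5, 70.7 and 82.5, and lay under the P133 mice at 130.3, 145, 144 and 161. Over untreated mice Slc25a13 fell by 0.63 (adjusted p = 0.00391) with Smyd3-ASO. Oat, which turns ornithine towards glutamate, and Glul, which makes glutamine, both belong to the hepatocytes around the central vein. They were chosen for mention after their values were seen. Oat changed by -1.55 (adjusted p = 0.00737) in control ASO over untreated and by 1.62 (adjusted p = 0.00951) in Smyd3-ASO over control ASO, and Glul by -1.47 (adjusted p = 8.79e-04) and 1.22 (adjusted p = 0.0194). The summed level of 8 pericentral markers, these genes among them, was 3896 to 7004 CPM in untreated mice, with P133 mice at 3528 to 5122, control-ASO mice at 688 to 2727 and Smyd3-ASO mice at 2251 to 4411 CPM, and that of 6 periportal markers outside the list was 3649 to 4218 CPM in untreated mice, with P133 mice at 3169 to 3887, control-ASO mice at 1711 to 3945 and Smyd3-ASO mice at 1656 to 7317 CPM. Single markers did not all follow these sums. Of the 6 periportal markers, 3 rose and 2 fell over untreated with control ASO, and likewise with Smyd3-ASO. In Smyd3-ASO over control ASO 0 of them rose and 2 fell. Of the 8 pericentral markers, 7 fell in control ASO over untreated, and 3 rose in Smyd3-ASO over control ASO, with 5 not called. The shares of all genes are those given above.

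**Figure D2:**
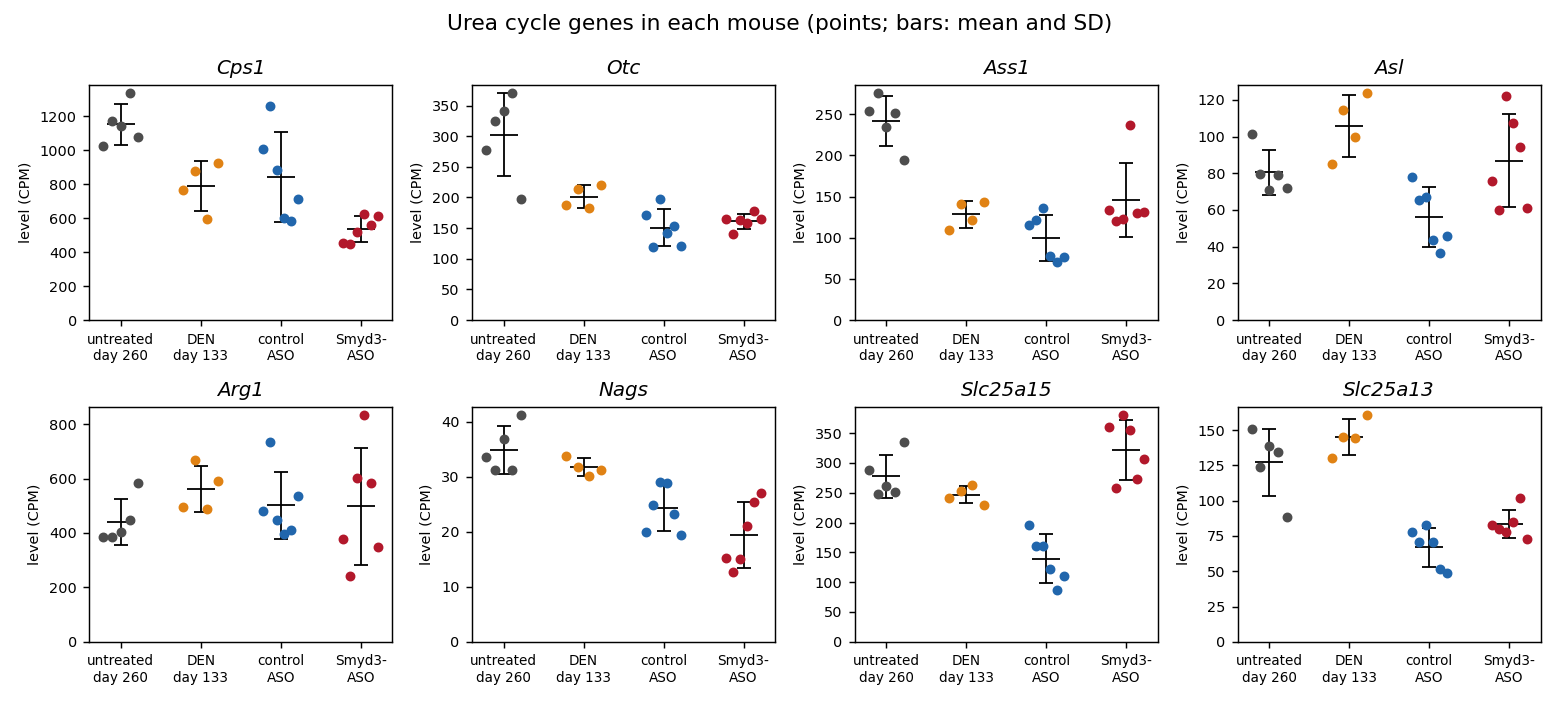
Levels (CPM, TMM scaling) of the 8 urea cycle genes in each of the 21 mice by group, with the mean and SD as bars. The 6 control-ASO mice lie below all others for Slc25a15, the untreated mice lie above both ASO groups for Otc and Nags, and the groups overlap for Arg1.

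The genes that move amino groups between glutamate, alanine and aspartate split between those that fell and those that did not. Of 5 members, 3 fell in control ASO over untreated (Gls2, Gpt and Got1) and 2 fell and 1 rose in Smyd3-ASO over untreated. Gls2, the liver glutaminase, frees ammonia from glutamine for the urea cycle. Gls2 stood at 222, 212, 155, 203 and 156 CPM in the untreated mice and at 145, 164, 152 and 167 CPM in the P133 mice. Gls2 had a lowest, median and highest level of 113, 119 and 154 CPM with control ASO and 61.0, 91.5 and 176 CPM with Smyd3-ASO. All control-ASO mice lay under the lowest untreated mouse, and the Smyd3-ASO mice spread from far below to within the untreated range. Gls2 fell by 0.59 (SE 0.14, adjusted p = 0.00297) in control ASO and by 0.93 (SE 0.24, adjusted p = 0.00657) in Smyd3-ASO over untreated. Its last 1000 bases overlap Spryd4 on the opposite strand by 97 bases. Glud1, glutamate dehydrogenase, lay at 1164, 1306 and 1425 CPM with control ASO and 867, 976 and 1045 CPM with Smyd3-ASO (lowest, median and highest), without overlap, and fell by 0.44 (SE 0.13, adjusted p = 0.0208), and this call ended without the filter on low counts (adjusted p = 0.079). Gpt, cytosolic alanine aminotransferase, moves the amino group of alanine. Gpt stood at 341, 337, 301, 283 and 258 CPM in the untreated mice and at 240.5, 272, 267 and 329 CPM in the P133 mice. Gpt had a lowest, median and highest level of 165, 176 and 259 CPM with control ASO and 160.1, 201 and 255 CPM with Smyd3-ASO. The untreated mice were high, the Smyd3-ASO mice all lay below them, and only control-ASO mouse 3 reached the untreated range. Gpt fell by 0.69 (SE 0.14, adjusted p = 0.00131) in control ASO and by 0.59 (SE 0.15, adjusted p = 0.0048) in Smyd3-ASO over untreated, and by 0.55 (adjusted p = 0.0129) in control ASO over P133, which ended without P133 mouse 4 (adjusted p = 0.054). Gpt2, its mitochondrial relative, lay at 151, 160.1 and 198 CPM with control ASO and 201, 238 and 345 CPM with Smyd3-ASO, without overlap, and rose by 0.60 (SE 0.15, adjusted p = 0.00879). Its rise over untreated, 0.55 (adjusted p = 0.0358), ended without any one of untreated mice 2, 4 or 5 or Smyd3-ASO mice 1, 3 or 4 (adjusted p = 0.0557 to 0.0777) and without the 3 low-Dbp mice (0.0682). Got1, cytosolic aspartate aminotransferase, makes aspartate and is a known glucocorticoid target. Got1 stood at 251, 179, 173, 233 and 265 CPM in the untreated mice and at 174, 257, 134 and 249.7 CPM in the P133 mice. Got1 had a lowest, median and highest level of 64.5, 104 and 178 CPM with control ASO and 96.0, 197 and 292 CPM with Smyd3-ASO. Control-ASO mice were the lowest group, with overlap. Got1 fell by 1.04 (SE 0.23, adjusted p = 0.00217) over untreated and by 0.92 (adjusted p = 0.0271) over P133. The call over P133 ended without any one of P133 mice 2 or 4 or control-ASO mice 3 or 6 (adjusted p = 0.0507 to 0.0807) and without the filter on low counts (0.107).

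For proline, the first enzyme fell and its close relative for hydroxyproline was not called. Prodh (ENSMUSG00000003526, chr16:18060357-18090203), proline dehydrogenase, starts proline breakdown in the mitochondrion. Prodh stood at 73.7, 78.1, 103, 90.1 and 58.7 CPM in the untreated mice and at 34.7, 50.1, 30.8 and 49.1 CPM in the P133 mice. Prodh had a lowest, median and highest level of 12.1, 16.6 and 26.8 CPM with control ASO and 12.6, 17.6 and 28.0 CPM with Smyd3-ASO. The ASO groups lay wholly below the P133 mice and these wholly below the untreated mice. Prodh fell by 2.16 (SE 0.21, adjusted p = 3.42e-06) in control ASO, 2.14 (SE 0.21, adjusted p = 4.34e-06) in Smyd3-ASO and 0.97 (SE 0.19, adjusted p = 0.00119) in P133 over untreated, and by 1.19 (SE 0.23, adjusted p = 0.00229) in control ASO over P133. Smyd3-ASO and control-ASO mice overlapped, with 0.04 (adjusted p = 0.922). Prodh2, which acts on hydroxyproline, changed by -0.16 to 0.08 over the comparisons with untreated mice, none called. Aldh4a1 acts further down both routes. Aldh4a1 stood at 319, 284, 230.2, 242 and 211 CPM in the untreated mice and at 161, 175, 187 and 205 CPM in the P133 mice. Aldh4a1 had a lowest, median and highest level of 126, 151 and 222 CPM with control ASO and 189, 202 and 230.3 CPM with Smyd3-ASO. The P133 mice all lay under the untreated mice, and control-ASO mice reached into the untreated range. Aldh4a1 fell by 0.69 (SE 0.17, adjusted p = 0.00439) in control ASO and by 0.49 (adjusted p = 0.0191) in P133 over untreated. The P133 call ended without any one of untreated mouse 1 or P133 mice 1 or 2 (adjusted p = 0.0504 to 0.0673).

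Of the 5 members for phenylalanine and tyrosine, all 5 fell in control ASO over untreated, 4 fell in Smyd3-ASO over untreated and 2 in P133 over untreated. Tat, tyrosine aminotransferase, takes the first step and is a classic target of glucocorticoids. Tat stood at 571, 460.3, 379, 649.8 and 702 CPM in the untreated mice and at 393, 821, 130.3 and 512 CPM in the P133 mice. Tat had a lowest, median and highest level of 95.0, 227 and 372 CPM with control ASO and 215, 319.7 and 975 CPM with Smyd3-ASO. The untreated mice lay above all control-ASO mice, while P133 mice ran from far below to above the untreated range and Smyd3-ASO mouse 3 stood apart at the top of its group. Tat fell by 1.26 (SE 0.28, adjusted p = 0.00257) in control ASO over untreated and changed by -0.40 (adjusted p = 0.393) with Smyd3-ASO and -0.25 (adjusted p = 0.712) at P133. Hpd (ENSMUSG00000029445, chr5:123171807-123182727), the next enzyme, is the one blocked by nitisinone in tyrosinaemia. Hpd stood at 1561, 1179, 776, 1344 and 582 CPM in the untreated mice and at 197, 244, 244 and 491 CPM in the P133 mice. Hpd had a lowest, median and highest level of 127, 169 and 417 CPM with control ASO and 244, 345 and 392 CPM with Smyd3-ASO. No mouse of a DEN group reached the lowest untreated mouse. Hpd fell by 2.36 (SE 0.35, adjusted p = 1.43e-04) in control ASO, 1.88 (SE 0.35, adjusted p = 0.00235) in P133 and 1.75 (SE 0.25, adjusted p = 1.07e-04) in Smyd3-ASO over untreated, and its change in Smyd3-ASO over control ASO was 0.62 (adjusted p = 0.106). Hgd, homogentisate dioxygenase, whose loss causes alkaptonuria, is the gene whose promoter letters are printed above. Hgd stood at 228, 254, 232, 259 and 191 CPM in the untreated mice and at 180.3, 199, 189 and 216 CPM in the P133 mice. Hgd had a lowest, median and highest level of 79.3, 104 and 159.9 CPM with control ASO and 116, 139 and 260.3 CPM with Smyd3-ASO. Control-ASO mice lay below both the P133 and the untreated mice, and Smyd3-ASO mouse 6 lay above every untreated mouse, and its group's other 5 lay below them. Hgd fell by 1.03 (SE 0.17, adjusted p = 2.06e-04) over untreated and by 0.78 (SE 0.17, adjusted p = 0.0038) over P133 in control-ASO mice. Its fall in Smyd3-ASO over untreated, -0.60 (adjusted p = 0.0234), ended without any one of untreated mice 2 or 4 (adjusted p = 0.0532 to 0.0556). Gstz1 and Fah, the last steps, fell by 0.56 (adjusted p = 0.0137) and 0.67 (adjusted p = 6.84e-04) in control ASO over untreated. In Smyd3-ASO over untreated they fell by 0.47 (adjusted p = 0.022) and 0.55 (adjusted p = 0.00843), and the Gstz1 call ended without any one of untreated mice 1 or 2 (adjusted p = 0.0587 to 0.0697) and without the filter on low counts (0.0953).

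The kynurenine pathway of tryptophan held genes that fell and genes that were not called. Of 6 members, 4 fell in control ASO over untreated, 4 in P133 over untreated and 3 in Smyd3-ASO over untreated, and 2 rose in Smyd3-ASO over control ASO. Tdo2, tryptophan dioxygenase, opens the ring and sets the flow. Tdo2 stood at 987, 1137, 1204, 1171 and 699 CPM in the untreated mice and at 780.5, 879, 661 and 825 CPM in the P133 mice. Tdo2 had a lowest, median and highest level of 749, 901 and 1061 CPM with control ASO and 624, 1018 and 1974 CPM with Smyd3-ASO. The groups overlapped and no comparison called it, with changes from -0.40 in P133 over untreated to 0.29 in Smyd3-ASO over control ASO. Outside the 54 members, Ido2, another enzyme that opens the ring, fell by 0.53 (adjusted p = 0.0207) in control ASO and 0.41 (adjusted p = 0.0343) in P133 over untreated. Kyat1 and Kyat3, aminotransferases that act on kynurenine and lie outside the list too, rose by 0.48 (adjusted p = 0.033) and 0.69 (adjusted p = 8.12e-04) in control ASO over untreated. Haao (ENSMUSG00000000673, chr17:83831156-83847963), whose promoter letters are printed above, makes the precursor of quinolinate and of NAD. Haao stood at 426, 274, 193, 417 and 179 CPM in the untreated mice and at 131, 152, 149.98 and 142 CPM in the P133 mice. Haao had a lowest, median and highest level of 60.6, 72.0 and 106 CPM with control ASO and 88.4, 132 and 143 CPM with Smyd3-ASO. The untreated mice lay above all other groups and the P133 mice above all control-ASO mice. Haao fell by 1.94 (SE 0.24, adjusted p = 2.71e-05) in control ASO, 1.30 (SE 0.25, adjusted p = 7.50e-04) in Smyd3-ASO and 1.04 (SE 0.25, adjusted p = 0.00831) in P133 over untreated, and by 0.89 (SE 0.15, adjusted p = 7.15e-04) in control ASO over P133. It rose by 0.65 (SE 0.17, adjusted p = 0.0118) in Smyd3-ASO over control ASO, with overlap between the groups. Kynu, kynureninase, cleaves alanine from the chain. Kynu stood at 88.1, 83.5, 98.3, 109.6 and 95.9 CPM in the untreated mice and at 46.9, 62.5, 49.0 and 51.4 CPM in the P133 mice. Kynu had a lowest, median and highest level of 26.0, 37.4 and 51.5 CPM with control ASO and 41.9, 49.8 and 62.5 CPM with Smyd3-ASO. Every DEN mouse lay below every untreated mouse. Kynu fell by 1.33 (SE 0.18, adjusted p = 3.59e-05) in control ASO, 0.96 (adjusted p = 1.06e-04) in Smyd3-ASO and 0.85 (adjusted p = 2.14e-04) in P133 over untreated. Kmo, which hydroxylates kynurenine, rose by 0.56 (adjusted p = 0.0193) in Smyd3-ASO over control ASO and fell by 0.49 (adjusted p = 0.0209) in control ASO over P133, and this call ended without P133 mouse 1 (adjusted p = 0.0747). Afmid, kynurenine formamidase, fell by 1.36 (adjusted p = 5.28e-05) with control ASO, 1.58 (adjusted p = 1.06e-04) with Smyd3-ASO and 1.12 (adjusted p = 0.00111) at P133 over untreated. The overlapping same-strand model Gm20708 held 90.2% to 99.0% as many counts in each mouse, so the level of Afmid is uncertain. Acmsd, which draws the pathway away from NAD, fell by 0.83 (adjusted p = 0.0179) at P133 and 0.66 (adjusted p = 0.0259) with control ASO over untreated. The first ended without any one of P133 mice 3 or 4 (adjusted p = 0.0529 to 0.0579) and with 1 fit over the 4 groups (0.0824), and the other ended without any one of untreated mouse 5 or control-ASO mouse 4 (adjusted p = 0.0501 to 0.0798), with 1 fit over the 4 groups (0.0888) and without the 3 low-Dbp mice (0.211).

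Serine and glycine enzymes did not move as a block, and the P133 mice stood apart for 1 of them. Of 5 members, 3 fell in P133 over untreated, 2 fell and 1 rose in control ASO over untreated, and 1 fell in each comparison of Smyd3-ASO. Agxt (ENSMUSG00000026272, chr1:93135240-93145421), the peroxisomal enzyme that clears glyoxylate and whose loss causes primary hyperoxaluria, was lowest at day 133. Agxt stood at 91.3, 79.7, 109, 109 and 86.5 CPM in the untreated mice and at 23.5, 36.4, 33.2 and 31.2 CPM in the P133 mice. Agxt had a lowest, median and highest level of 55.2, 81.5 and 94.7 CPM with control ASO and 53.9, 67.3 and 125 CPM with Smyd3-ASO. All 4 P133 mice lay below every other mouse. Agxt fell by 1.60 (SE 0.16, adjusted p = 4.02e-06) in P133 over untreated and rose by 1.36 (SE 0.17, adjusted p = 7.92e-05) in control ASO over P133, while control ASO and Smyd3-ASO over untreated gave -0.25 (adjusted p = 0.18) and -0.34 (adjusted p = 0.199). Sds, serine dehydratase, feeds serine into glucose production and rises with fasting. Sds stood at 198, 158, 145, 169 and 186 CPM in the untreated mice and at 56.5, 92.7, 35.0 and 61.2 CPM in the P133 mice. Sds had a lowest, median and highest level of 37.1, 58.9 and 82.3 CPM with control ASO and 26.2, 64.5 and 192 CPM with Smyd3-ASO. The untreated mice lay above all P133 and control-ASO mice, and the Smyd3-ASO mice ran from below both of those groups to within the untreated range. Sds fell by 1.50 (SE 0.20, adjusted p = 3.84e-05) in control ASO and 1.47 (SE 0.22, adjusted p = 2.42e-04) in P133 over untreated, with -1.11 (adjusted p = 0.0596) in Smyd3-ASO. Its last 1000 bases overlap Plbd2 on the other strand by 360 bases. Gldc, the glycine-binding subunit of the glycine cleavage system, was the only member to rise in control ASO over untreated. Gldc stood at 44.3, 50.7, 44.4, 37.4 and 49.4 CPM in the untreated mice and at 68.5, 78.6, 45.9 and 45.0 CPM in the P133 mice. Gldc had a lowest, median and highest level of 47.4, 58.7 and 112 CPM with control ASO and 25.0, 41.3 and 51.4 CPM with Smyd3-ASO. The groups overlapped in both comparisons. Gldc rose by 0.64 (SE 0.22, adjusted p = 0.0294) there and fell by 0.89 (SE 0.25, adjusted p = 0.0179) in Smyd3-ASO over control ASO. The rise ended without any one of untreated mice 1, 3 or 4 or control-ASO mice 1 or 2 (adjusted p = 0.0566 to 0.0721) and without the 3 low-Dbp mice (0.141), and the fall ended without the 3 low-Dbp mice (adjusted p = 0.112). Amt, another subunit of that system, fell by 0.90 (adjusted p = 0.00318) with control ASO, 0.82 (adjusted p = 7.10e-04) at P133 and 0.54 (adjusted p = 0.0121) with Smyd3-ASO over untreated. Sdsl was not called in any comparison, at 2.83 to 17.3 CPM in the Smyd3-ASO mice.

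The RNA of all 4 histidine breakdown genes fell in the DEN groups without Smyd3-ASO. All 4 members fell in P133 over untreated and all 4 in control ASO over untreated, and 3 fell in Smyd3-ASO over untreated. Hal, histidine ammonia lyase, releases ammonia in the first step. Hal stood at 172, 139, 134, 158 and 189 CPM in the untreated mice and at 106, 134, 119.6 and 98.4 CPM in the P133 mice. Hal had a lowest, median and highest level of 83.5, 113 and 162 CPM with control ASO and 79.5, 110.4 and 151 CPM with Smyd3-ASO. Its groups met or overlapped except that the P133 mice lay below the untreated mice. Hal fell by 0.54 (SE 0.19, adjusted p = 0.0325) in Smyd3-ASO, 0.47 (adjusted p = 0.0263) in control ASO and 0.47 (adjusted p = 0.0212) in P133 over untreated, and each call ended when 1 of several mice was left out, with adjusted p up to 0.0753, 0.0625 and 0.0745 in that order. The mice were untreated 1, 4 or 5 or Smyd3-ASO 2, 3 or 6 for the first, untreated 1 or 5 or control-ASO 5 or 6 for the next, and P133 1 or 4 for the last. Uroc1 (ENSMUSG00000034456, chr6:90333284-90364551), urocanate hydratase, follows. Uroc1 stood at 241, 220.4, 184, 208 and 177 CPM in the untreated mice and at 133, 131, 121 and 120.4 CPM in the P133 mice. Uroc1 had a lowest, median and highest level of 69.0, 82.4 and 103 CPM with control ASO and 65.2, 83.9 and 88.8 CPM with Smyd3-ASO. Both ASO groups lay wholly below the P133 mice and these wholly below the untreated mice. Uroc1 fell by 1.36 (SE 0.14, adjusted p = 7.04e-06) in Smyd3-ASO, 1.26 (SE 0.14, adjusted p = 5.85e-06) in control ASO and 0.70 (SE 0.13, adjusted p = 8.91e-04) in P133 over untreated, and by 0.56 (adjusted p = 0.00596) in control ASO over P133. Amdhd1 takes the third step. Amdhd1 stood at 158, 128, 109.7, 124 and 103 CPM in the untreated mice and at 56.3, 78.4, 57.4 and 57.4 CPM in the P133 mice. Amdhd1 had a lowest, median and highest level of 50.8, 62.8 and 74.0 CPM with control ASO and 39.0, 46.8 and 75.5 CPM with Smyd3-ASO. Every DEN mouse lay below every untreated mouse. Amdhd1 fell by 1.26 (SE 0.20, adjusted p = 1.69e-04) in Smyd3-ASO and 0.99 (adjusted p = 9.45e-05) in control ASO and 0.99 (adjusted p = 2.18e-04) in P133 over untreated. Ftcd, which passes the last carbon to folate, fell by 0.86 (adjusted p = 8.91e-04) in P133 and 0.66 (adjusted p = 0.00181) in control ASO over untreated, and its change in Smyd3-ASO over untreated was -0.01 (adjusted p = 0.978). Ftcd rose by 0.67 (adjusted p = 0.0426) in Smyd3-ASO over control ASO, and this call ended without any one of control-ASO mice 1, 2, 3, 4, 5 or 6 or Smyd3-ASO mice 1, 2, 3 or 4 (adjusted p = 0.0543 to 0.101) and without the 3 low-Dbp mice (0.106).

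In methionine metabolism more members fell than rose in each comparison with untreated mice. Of 7 members, 5 fell in control ASO over untreated, 4 in Smyd3-ASO over untreated, and 3 fell and 1 rose in P133 over untreated. Mat1a, the liver methionine adenosyltransferase, makes S-adenosylmethionine, the methyl donor that methyltransferases such as Smyd3 use. Mat1a stood at 949.6, 513, 718, 738 and 1475 CPM in the untreated mice and at 884, 905, 1014 and 1299 CPM in the P133 mice. Mat1a had a lowest, median and highest level of 608, 799 and 1579 CPM with control ASO and 526, 806 and 1344 CPM with Smyd3-ASO. Spread within each group was wide and the groups overlapped, and its changes lay between -0.15 and 0.23, none called. Outside the 54 members, Mat2a, which makes S-adenosylmethionine in most other tissues, rose by 0.71 (adjusted p = 0.002) in P133 over untreated, with 0.29 (adjusted p = 0.193) in control ASO. Mtr, which remakes methionine with a folate methyl group and is no member either, rose by 0.76 (adjusted p = 0.0223) in P133 over untreated, with 0.38 (adjusted p = 0.125) in control ASO. Gnmt spends the methyl group on glycine and fell by 1.45 (SE 0.26, adjusted p = 4.02e-04) in control ASO, 1.25 (adjusted p = 0.002) in Smyd3-ASO and 0.90 (adjusted p = 0.00228) in P133 over untreated. Its levels with control ASO, 563, 798 and 1449 CPM, all lay below the untreated levels of 2832, 2935, 1905, 2706 and 1839.5 CPM. Ahcy, which clears the S-adenosylhomocysteine left behind, rose by 0.62 (adjusted p = 0.00214) in P133 over untreated. This call ended with 1 fit over the 4 groups (adjusted p = 0.0629). Ahcy fell by 0.96 (adjusted p = 0.00657) in control ASO over P133. Bhmt (ENSMUSG00000074768, chr13:93616675-93637961) remakes methionine from homocysteine with betaine. Bhmt stood at 938, 1505, 1606, 1320.4 and 1604 CPM in the untreated mice and at 313, 604, 533 and 501 CPM in the P133 mice. Bhmt had a lowest, median and highest level of 523, 664 and 1405 CPM with control ASO and 322, 539.6 and 794 CPM with Smyd3-ASO. The P133 and Smyd3-ASO mice lay below all untreated mice, and the control-ASO mice overlapped them. Bhmt fell by 1.51 (SE 0.22, adjusted p = 1.10e-04) in P133 and 1.38 (SE 0.25, adjusted p = 5.43e-04) in Smyd3-ASO over untreated. In control ASO over untreated it fell by 0.76 (adjusted p = 0.0325), which ended without any one of untreated mice 2, 3, 4 or 5 or control-ASO mice 3, 4, 5 or 6 (adjusted p = 0.0511 to 0.0687) and without the filter on low counts (0.0697). Bhmt2, a relative that takes its methyl group from S-methylmethionine, stands beside it on chromosome 13. Bhmt2 stood at 144, 169, 143, 151 and 153 CPM in the untreated mice and at 113, 113, 125 and 109 CPM in the P133 mice. Bhmt2 had a lowest, median and highest level of 68.5, 93.7 and 114 CPM with control ASO and 57.0, 65.0 and 102 CPM with Smyd3-ASO. Every DEN mouse lay below every untreated mouse. Bhmt2 fell by 1.05 (SE 0.17, adjusted p = 2.65e-04) in Smyd3-ASO and 0.71 (SE 0.16, adjusted p = 0.00234) in control ASO over untreated. Its fall at P133, -0.40 (adjusted p = 0.0173), ended without P133 mouse 4 (adjusted p = 0.0556) and with 1 fit over the 4 groups (0.11). Dmgdh and Sardh strip the methyl groups from the glycine products, and fell by 0.78 (adjusted p = 0.0144) and 1.07 (adjusted p = 5.45e-04) in control ASO over untreated. Sardh rose by 0.70 (adjusted p = 0.0189) in Smyd3-ASO over control ASO.

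Of the enzymes that turn homocysteine into cysteine and taurine, the first fell in every DEN group and the last gave the largest rise of the list in any of the 5 comparisons. Of 4 members, 2 fell in control ASO over untreated, 2 fell and 1 rose in Smyd3-ASO over untreated, 1 fell and 1 rose in P133 over untreated, and 2 rose in Smyd3-ASO over control ASO. Cbs (ENSMUSG00000024039, chr17:31608894-31637238), cystathionine beta-synthase, commits homocysteine to cysteine. Cbs stood at 617, 610.5, 363, 467 and 641 CPM in the untreated mice and at 116, 122, 129.6 and 80.8 CPM in the P133 mice. Cbs had a lowest, median and highest level of 124, 152 and 175 CPM with control ASO and 64.6, 114 and 199 CPM with Smyd3-ASO. The lowest untreated mouse lay well above the highest DEN mouse. Cbs fell by 2.26 (SE 0.20, adjusted p = 1.96e-06) in P133, 2.24 (SE 0.27, adjusted p = 2.70e-05) in Smyd3-ASO and 1.83 (SE 0.17, adjusted p = 1.31e-06) in control ASO over untreated. Its rise in control ASO over P133, 0.43 (adjusted p = 0.0425), ended without any one of P133 mice 1, 2 or 4 or control-ASO mice 1, 3, 4 or 5 (adjusted p = 0.0509 to 0.138), with 1 fit over the 4 groups (0.2), with each mouse thinned to the lowest total (0.0505) and without the 3 low-Dbp mice (0.0512). Cth, the next enzyme, lay at 94.2, 168 and 293 CPM with control ASO and 159, 355 and 476 CPM with Smyd3-ASO, with overlap, and rose by 0.87 (adjusted p = 0.0491) there and by 0.65 (adjusted p = 0.0401) in Smyd3-ASO over untreated. The first call ended without any one of control-ASO mice 3, 4, 5 or 6 or Smyd3-ASO mice 1, 2, 3, 4 or 5 (adjusted p = 0.0585 to 0.1), without the filter on low counts (0.0958) and with limma voom (0.0508), and the other ended without any one of untreated mice 1, 2 or 3 or Smyd3-ASO mice 1, 2, 4 or 5 (adjusted p = 0.0558 to 0.0983) and with limma voom (0.0724). Gm43314, annotated on the same strand within the span of Cth, held 98.8% to 99.9% as many counts as Cth in each mouse, so the 2 readings are not independent and the level of Cth is uncertain. Cdo1, cysteine dioxygenase, fell by 0.72 (adjusted p = 0.00717) in control ASO and 0.67 (adjusted p = 0.00806) in Smyd3-ASO over untreated. Csad (ENSMUSG00000023044, chr15:102176999-102204724) makes hypotaurine, the precursor of taurine for bile salts. Csad stood at 61.2, 184, 119, 121 and 70.8 CPM in the untreated mice and at 428, 332, 379 and 330.2 CPM in the P133 mice. Csad had a lowest, median and highest level of 59.3, 85.6 and 104 CPM with control ASO and 90.6, 157 and 261 CPM with Smyd3-ASO. All 4 P133 mice lay above all 17 other mice. Csad rose by 1.73 (SE 0.29, adjusted p = 0.00109) in P133 over untreated and fell by 2.15 (SE 0.15, adjusted p = 2.02e-06) in control ASO over P133. It rose by 0.92 (SE 0.25, adjusted p = 0.0138) in Smyd3-ASO over control ASO, with overlap, and its changes over untreated were -0.43 (adjusted p = 0.181) with control ASO and 0.48 (adjusted p = 0.253) with Smyd3-ASO.

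Of 6 branched chain and lysine genes, 3 fell in control ASO over untreated, and 3 rose and 1 fell in Smyd3-ASO over control ASO. Bckdhb (ENSMUSG00000032263, chr9:83925145-84124240) encodes the beta subunit of the branched chain ketoacid dehydrogenase, the committing step for leucine, isoleucine and valine. Bckdhb stood at 107, 66.6, 70.6, 99.5 and 65.5 CPM in the untreated mice and at 38.5, 46.3, 48.7 and 48.6 CPM in the P133 mice. Bckdhb had a lowest, median and highest level of 52.7, 66.7 and 77.3 CPM with control ASO and 28.9, 34.7 and 40.9 CPM with Smyd3-ASO. All 6 Smyd3-ASO mice lay below all control-ASO mice and all untreated mice. Bckdhb fell by 0.92 (SE 0.13, adjusted p = 2.98e-04) in Smyd3-ASO over control ASO, by 1.26 (SE 0.17, adjusted p = 5.41e-05) in Smyd3-ASO over untreated and by 0.84 (SE 0.17, adjusted p = 0.00155) in P133 over untreated. In control ASO over P133 it rose by 0.52 (SE 0.13, adjusted p = 0.0092), without overlap. The fall in Smyd3-ASO over control ASO was called in every alternative run, and with only the 2 low-Dbp control-ASO mice its adjusted p was 0.0406. Bckdha, the alpha subunit of the same complex, did not follow. Bckdha stood at 51.4, 68.9, 51.3, 52.5 and 31.7 CPM in the untreated mice and at 51.5, 58.4, 59.1 and 74.8 CPM in the P133 mice. Bckdha had a lowest, median and highest level of 45.8, 65.0 and 75.0 CPM with control ASO and 61.6, 71.3 and 92.0 CPM with Smyd3-ASO. The groups overlapped. Bckdha changed by 0.20 (SE 0.14, adjusted p = 0.309) in Smyd3-ASO over control ASO and rose by 0.50 (SE 0.18, adjusted p = 0.0328) over untreated, and this call ended without any one of untreated mice 1, 3, 4 or 5 or Smyd3-ASO mice 1, 2 or 4 (adjusted p = 0.0507 to 0.0703), with each mouse thinned to the lowest total (0.0566) and without the 3 low-Dbp mice (0.0632). Its last 1000 bases lie over B3gnt8 on the opposite strand. Aass starts lysine breakdown. Aass stood at 112, 90.5, 126, 114 and 108 CPM in the untreated mice and at 108, 147, 75.3 and 152 CPM in the P133 mice. Aass had a lowest, median and highest level of 45.8, 64.3 and 78.8 CPM with control ASO and 80.3, 89.6 and 156 CPM with Smyd3-ASO. All Smyd3-ASO mice lay above all control-ASO mice, and all control-ASO mice below all untreated mice. Aass rose by 0.72 (SE 0.20, adjusted p = 0.0165) in Smyd3-ASO over control ASO and fell by 0.79 (SE 0.15, adjusted p = 6.82e-04) in control ASO over untreated. Hibch serves valine breakdown. Hibch stood at 36.8, 37.7, 38.5, 40.5 and 27.0 CPM in the untreated mice and at 36.8, 38.1, 31.0 and 38.0 CPM in the P133 mice. Hibch had a lowest, median and highest level of 18.1, 21.6 and 25.9 CPM with control ASO and 24.4, 33.1 and 45.2 CPM with Smyd3-ASO. The control-ASO mice lay below all untreated and all P133 mice. Hibch fell by 0.72 (SE 0.13, adjusted p = 4.22e-04) over untreated and 0.71 (SE 0.13, adjusted p = 0.00105) over P133 with control ASO, and rose by 0.58 (adjusted p = 0.0144) in Smyd3-ASO over control ASO. Ivd, for leucine, fell by 0.73 (adjusted p = 0.00959) in control ASO over untreated. Aldh6a1, for valine, rose by 0.42 (adjusted p = 0.0443) in Smyd3-ASO over control ASO, and this call ended without any one of control-ASO mice 2, 4, 5 or 6 or Smyd3-ASO mice 2, 3, 4, 5 or 6 (adjusted p = 0.0533 to 0.0978), without the filter on low counts (0.0648) and with each mouse thinned to the lowest total (0.0569).

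Etnppl (ENSMUSG00000019232, chr3:130617448-130637521) breaks down phosphoethanolamine, shares the fold of the aminotransferases and is the last of the 3 genes whose promoter letters are printed above. Etnppl stood at 73.7, 65.3, 35.7, 61.2 and 29.0 CPM in the untreated mice and at 91.0, 102, 100.4 and 82.2 CPM in the P133 mice. Etnppl had a lowest, median and highest level of 11.6, 23.3 and 39.3 CPM with control ASO and 34.7, 41.0 and 47.2 CPM with Smyd3-ASO. The P133 mice lay above all other mice, and the control-ASO mice were the lowest group. Etnppl rose by 0.83 (SE 0.25, adjusted p = 0.0232) in P133 over untreated and fell by 1.97 (SE 0.34, adjusted p = 0.00242) in control ASO over P133 and by 1.15 (SE 0.37, adjusted p = 0.027) in control ASO over untreated. Smyd3-ASO over control ASO gave 0.74 (SE 0.27, adjusted p = 0.0581). The P133 rise ended without any one of P133 mice 2 or 3 (adjusted p = 0.0596 to 0.0633) and without the filter on low counts (0.056), and the fall over untreated ended without any one of untreated mice 1, 2 or 4 or control-ASO mouse 4 (adjusted p = 0.0541 to 0.065), without the filter on low counts (0.0761) and with each mouse thinned to the lowest total (0.0563).

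**Figure D3:**
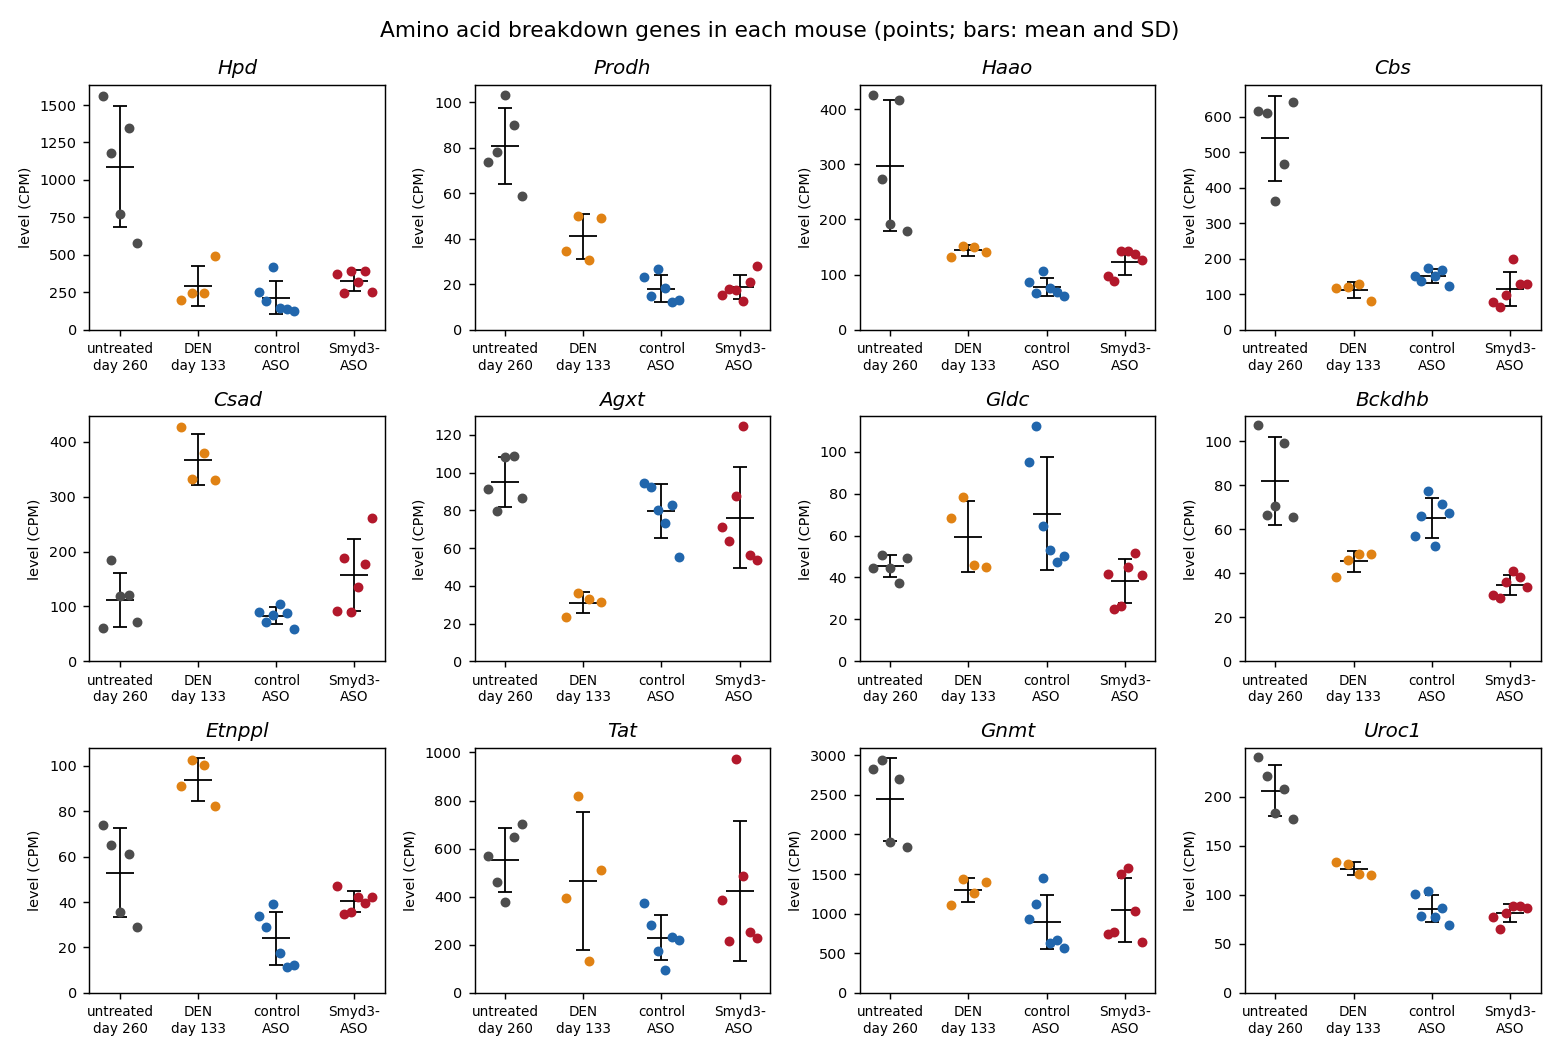
Levels (CPM, TMM scaling) of 12 amino acid breakdown genes in each of the 21 mice by group, with the mean and SD as bars. The P133 mice lie apart from all others for Agxt (below) and for Csad and Etnppl (above), the untreated mice lie above all others for Hpd, Prodh, Haao and Cbs, and the Smyd3-ASO mice lie below the control-ASO mice for Bckdhb.

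Related enzymes can be set against each other within 1 mouse, which needs no scaling between mice. For 4 pairs the log2 ratio of counts was taken in each mouse, and group means were compared with an exact permutation test over mice, two-sided, with adjustment over 20 tests (the smallest p it can give is 0.00216 for 6 mice against 5 or 6). The ratios were chosen after the data were seen, and the adjustment does not cover that choice. They use the same counts as the tests of single genes above and are no independent support for them. The level of such a ratio is not read, only its difference between groups. The ratio of Prodh to Prodh2 was -0.38, -0.03, 0.70, 0.37 and 0.21 in the untreated mice and -1.01, -0.60, -1.34 and -0.69 in the P133 mice, and -2.47, -1.97 and -1.57 (lowest, median and highest) with control ASO. Every DEN mouse lay below every untreated mouse. The ratio differed by -2.16 (exact two-sided permutation p = 0.00216, adjusted p = 0.00866) in control ASO, -2.02 (exact two-sided permutation p = 0.00216, adjusted p = 0.00866) in Smyd3-ASO and -1.08 (exact two-sided permutation p = 0.0159, adjusted p = 0.0265) in P133 over untreated. The ratio of Sds to Sdsl differed by -1.85 (exact two-sided permutation p = 0.00216, adjusted p = 0.00866) in control ASO over untreated and by -1.46 (exact two-sided permutation p = 0.0159, adjusted p = 0.0265) in P133 over untreated. For Gpt over Gpt2 the ratio was 0.79, 0.99, 0.54, 0.75 and 1.39 in the untreated mice and -0.75, -0.20 and 0.23 with Smyd3-ASO, without overlap. It differed by -1.17 (exact two-sided permutation p = 0.00216, adjusted p = 0.00866) there and by -0.46 (exact two-sided permutation p = 0.0173, adjusted p = 0.0266) in Smyd3-ASO over control ASO. The control-ASO mice, at 0.02, 0.14 and 0.38, also lay below all untreated mice. Their ratio differed by -0.71 (exact two-sided permutation p = 0.00216, adjusted p = 0.00866) over untreated and by -0.31 (exact two-sided permutation p = 0.0143, adjusted p = 0.0265) over P133. The ratio of Bhmt to Bhmt2 was 2.71, 3.15, 3.48, 3.13 and 3.39 in the untreated mice and 1.47, 2.41, 2.09 and 2.21 in the P133 mice. The P133 mice lay below all untreated mice, with -1.13 (exact two-sided permutation p = 0.00794, adjusted p = 0.0176) in P133 over untreated, 1.03 (exact two-sided permutation p = 0.00476, adjusted p = 0.0136) in control ASO over P133 and -0.10 (exact two-sided permutation p = 0.626, adjusted p = 0.626) in control ASO over untreated.

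**Figure D4:**
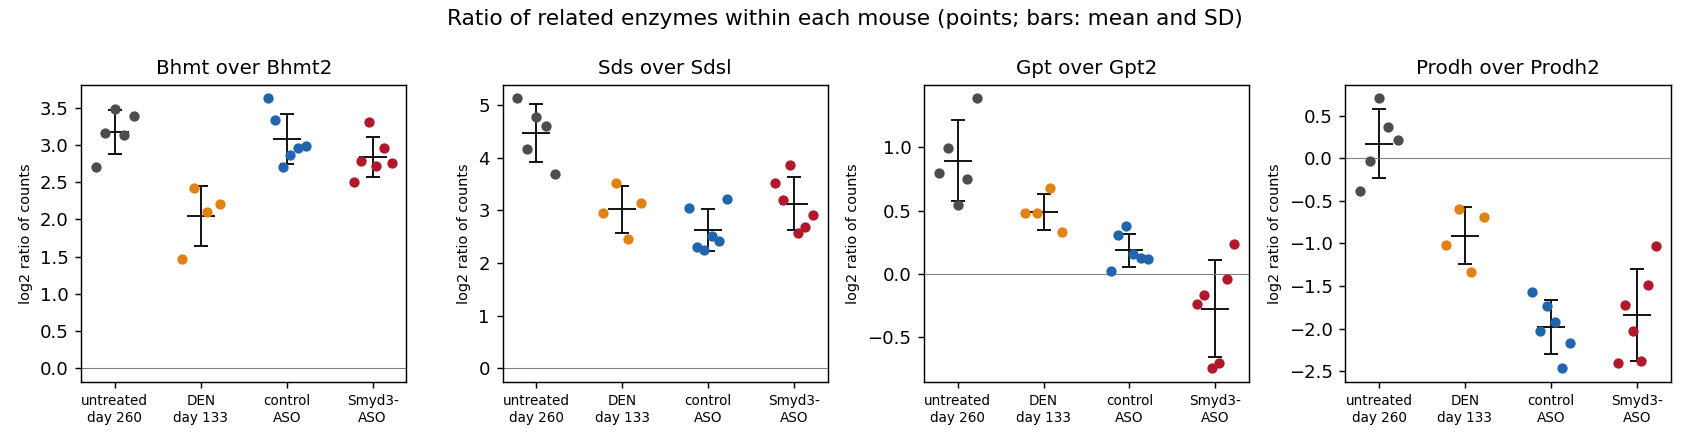
Log2 ratio of the counts of 4 pairs of related enzymes within each mouse, by group, with the mean and SD as bars. The DEN groups lie below the untreated mice for Prodh over Prodh2, and only the P133 mice lie below the untreated mice without overlap for Bhmt over Bhmt2.

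Among other genes of the same pathways, too, more fell than rose in each comparison with untreated mice. Of 88 further pathway genes listed by name, 81 passed the filter on low counts. This list, too, was chosen with earlier results of these data known, so it is no independent support. Among the 81 genes, 8 rose and 43 fell in control ASO over untreated (background 23.7% and 22.2% of all genes). In Smyd3-ASO over untreated 3 rose and 34 fell (background 24.4% and 23.2%), and in P133 over untreated 8 rose and 25 fell (background 15.1% and 16.6%). In control ASO over P133 5 rose and 22 fell (background 14.4% and 12.6%), and in Smyd3-ASO over control ASO 20 rose and 10 fell (background 13.3% and 12.9%). Near the urea cycle, Car5a, which supplies mitochondrial bicarbonate to Cps1, fell by 1.48 (adjusted p = 5.11e-04) in control ASO over untreated, and Gamt, which makes creatine, fell by 2.01 (adjusted p = 6.68e-06) in Smyd3-ASO over untreated. Got2, the mitochondrial partner of Got1, fell by 1.22 (adjusted p = 1.85e-04) in control ASO over untreated, while Aspg, an asparaginase, rose by 1.13 (adjusted p = 5.53e-05) in control ASO over P133. Hoga1, on the hydroxyproline route, fell by 1.68 (adjusted p = 6.77e-07) in Smyd3-ASO over untreated, and Pcbd1, which recycles the cofactor of phenylalanine hydroxylase, by 1.13 (adjusted p = 1.09e-04). Aadat and Qprt, of the kynurenine pathway, fell by 1.72 (adjusted p = 3.21e-04) in control ASO and 1.28 (adjusted p = 3.60e-04) in Smyd3-ASO over untreated. Pemt, which spends S-adenosylmethionine on phosphatidylcholine, fell by 1.72 (adjusted p = 6.75e-06) in Smyd3-ASO over untreated, and the sulfur transferases Tst and Mpst fell by 1.43 (adjusted p = 3.07e-06) in control ASO and 1.61 (adjusted p = 3.41e-05) in Smyd3-ASO over untreated. Of 21 other branched chain and lysine genes, 11 fell in control ASO over untreated and 8 rose in Smyd3-ASO over control ASO. Hsd17b10, for isoleucine, fell by 2.18 (adjusted p = 8.81e-08) in control ASO over untreated, and Pipox, for pipecolate, by 1.72 (adjusted p = 8.84e-07). In the opposite direction, Hdc, which makes histamine, rose by 4.69 (adjusted p = 3.48e-04) in Smyd3-ASO over untreated and by 2.38 (adjusted p = 0.00217) over control ASO.

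Of the 3 genes of serine synthesis, 2 rose in control ASO over untreated (background 23.7%) and fell in Smyd3-ASO over control ASO (background 12.9%). They were chosen for mention after their values were seen, and supply the serine and glycine that the members above break down. Phgdh, the first enzyme of serine synthesis, had a lowest, median and highest level of 1.38, 2.99 and 9.11 CPM with control ASO and 0.0540, 0.138 and 0.388 CPM with Smyd3-ASO, and its means were 0.128 ± 0.0956 CPM in untreated mice (SD, n = 5) and 0.105 ± 0.210 CPM in P133 mice (SD, n = 4). All control-ASO mice lay above all others. Phgdh rose by 4.75 (SE 0.67, adjusted p = 7.09e-05) in control ASO over untreated and fell by 4.31 (SE 0.58, adjusted p = 2.09e-04) in Smyd3-ASO over control ASO. Psat1, the next enzyme, rose by 2.91 (adjusted p = 0.00541) and fell by 3.44 (adjusted p = 0.00315) in the same comparisons, and Psph, the last, changed by 0.65 (adjusted p = 0.115) and 0.01 (adjusted p = 0.994). For Psat1 the groups overlapped in both comparisons. Both comparisons use the same control-ASO mice. Shmt2, which splits serine to glycine in the mitochondrion, fell by 1.91 (adjusted p = 5.15e-07) in control ASO, 1.80 (adjusted p = 5.68e-06) in Smyd3-ASO and 1.23 (adjusted p = 5.36e-05) in P133 over untreated.

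Of 11 regulators known to act on these genes, 1 rose and 5 fell in control ASO over untreated (background 23.7% and 22.2% of all genes). In Smyd3-ASO over untreated 1 rose and 6 fell (background 24.4% and 23.2%). In P133 over untreated 1 rose and 2 fell (background 15.1% and 16.6%), and in Smyd3-ASO over control ASO 1 rose and 3 fell (background 13.3% and 12.9%). Of 4 amino acid transporters of the cell membrane (Slc7a2, Slc38a2, Slc38a3 and Slc38a4), 1 rose and 3 fell in control ASO over untreated. In Smyd3-ASO over untreated 1 rose and 2 fell, and the background shares are those just given. Cebpa, which encodes C/EBP alpha, stood at 164, 167, 143, 135 and 101 CPM in the untreated mice and 42.5, 38.3, 58.9 and 58.2 in the P133 mice, with a lowest, median and highest value of 41.2, 52.6 and 77.9 with control ASO and 28.6, 35.3 and 43.3 with Smyd3-ASO. Every DEN mouse lay below every untreated mouse. Cebpa fell by 2.03 (SE 0.16, adjusted p = 1.07e-06) in Smyd3-ASO, 1.52 (SE 0.18, adjusted p = 2.07e-05) in P133 and 1.32 (SE 0.18, adjusted p = 3.70e-05) in control ASO over untreated. Hnf4a, a main factor of hepatocyte identity, fell by 1.31 (adjusted p = 6.63e-05), 0.69 (adjusted p = 0.00112) and 1.01 (adjusted p = 1.35e-05) in the same order. Cebpb, which encodes the C/EBP form raised by stress and glucagon, had 22.6, 31.9 and 81.0 CPM with control ASO and 89.1, 177 and 305 CPM with Smyd3-ASO. These groups did not overlap, and Cebpb rose by 2.13 (SE 0.36, adjusted p = 0.00123). Nr3c1, the glucocorticoid receptor, had 46.0, 55.9 and 59.6 CPM with control ASO and 23.2, 30.4 and 37.1 CPM with Smyd3-ASO, again without overlap, and fell by 0.89 (SE 0.13, adjusted p = 2.89e-04). The part of these regulators in the changes of the enzymes was not tested.

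**Figure D5:**
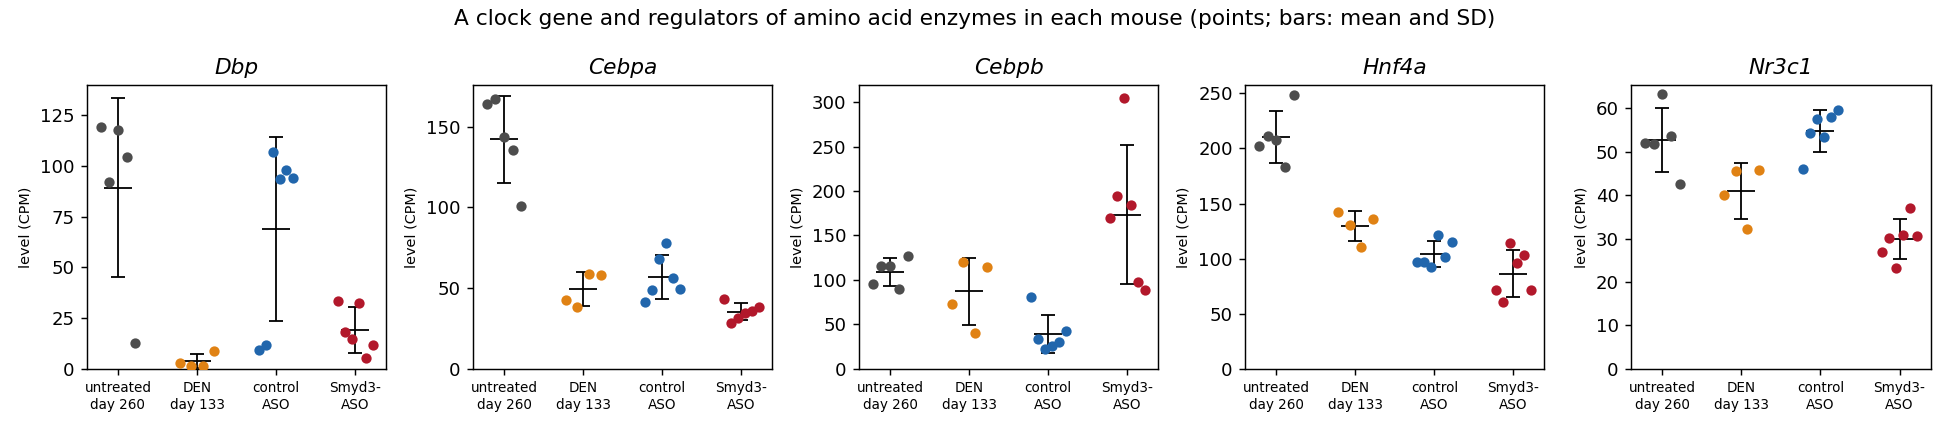
Levels (CPM, TMM scaling) of Dbp, Cebpa, Cebpb, Hnf4a and Nr3c1 in each of the 21 mice by group, with the mean and SD as bars. Dbp is low in all P133 and Smyd3-ASO mice, in 1 untreated mouse and in 2 control-ASO mice, and every DEN mouse lies below every untreated mouse for Cebpa and Hnf4a.

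The genes whose pattern over the 21 mice was most like that of Cps1 were Pitpnb, Gm5096 and Slc35a1, with a Pearson r of log2(CPM + 1) of 0.859, 0.858 and 0.857. Among the members, Bhmt2 (0.840), Bhmt (0.772) and Amdhd1 (0.766) were the closest to Cps1, and Slc25a15 was at -0.067. These values describe mice that share groups and libraries of unequal depth.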

How the data were processed

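The libraries were 3′ tag RNA-seq (QuantSeq, which reads the end of each transcript, so counts do not grow with transcript length), 35 in all from 21 mice. The deposited table used here holds raw whole-number counts per Ensembl gene, 1 column per mouse, in which the authors had merged the 1 to 3 libraries of a mouse. HISAT2 2.1.0, DESeq and the build mm10 are named per the submitters' processing notes, and the counting tool, its annotation, any filter and its use of strand are not given in the sources used here. A normalized table of the same samples was not used here. Symbols and positions came from GENCODE vM21, which uses the same build (GRCm38). Genes that share reads with an overlapping gene are named beside their values.

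Counts were filtered with filterByExpr over the 4 groups (15297 genes kept), scaled with TMM and tested with edgeR 4.0.16 (quasi-likelihood test, robust, R 4.3.3), each comparison on its own groups with no covariate, with Benjamini-Hochberg adjustment over all genes tested and a threshold of 0.05. SE is the absolute log2 change over the square root of F. The procedure was also run on simulated counts with far fewer changed genes than were called here, so that run does not measure its error in these data. Within groups, 46 pairs of mice had a Spearman rho of 0.919 to 0.978 and at most 5.64% identical counts, so no mouse was treated as a duplicate, and p-values measure the spread between these mice only.

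The members and all gene lists were chosen with earlier results of these data known. Values by mouse are given for named first or committing enzymes and for the 2 members of each pathway with the smallest adjusted p. Other pathway genes named are the 2 of each pathway with the smallest adjusted p, unless stated. Alternatives were library totals, DESeq2-type size factors, no filter, DESeq2 1.42.0, limma voom (3.58.1), 1 fit over all groups, the replicate number as a block, thinning to the lowest total, and leaving out each mouse. Chosen after seeing the data were scaling without the members, leaving out or keeping only the low-Dbp mice, and the within-mouse ratios of related genes. Sequences came from RefSeq's promoter table, and protein sequences were not used here.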

Additional observations from a re-analysis of the deposited data

Results flagged for a closer look

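For each of the 54 genes, the highest and the lowest mouse of each group of 4 to 6 mice was compared with its neighbours, as the gap to the nearest mouse divided by the whole range of the group (Dixon's test). Of 216 sets of 1 gene and 1 group, 16 passed the 95% critical value, and about 1 in 20 sets, 10.8 in all, would pass by chance.

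Untreated mouse 5, the low-Dbp mouse of its group, gave 4 of them. It was lowest for Afmid (76.0 CPM, nearest mouse 156), Ivd (34.2 CPM, nearest 50.9) and Hibch (27.0 CPM, nearest 36.8), and highest for Acmsd (37.1 CPM, nearest 19.9). Control-ASO mouse 3 gave 3, as the highest mouse for Gpt (259 CPM, nearest 188), Gpt2 (198 CPM, nearest 166) and Prodh2 (89.5 CPM, nearest 69.6). Smyd3-ASO mouse 4 was the highest of its group for Ass1 (237 CPM, nearest 133) and Acmsd (55.9 CPM, nearest 26.4).

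The other 7 came from 7 mice. Asl was highest in untreated mouse 1 (101 CPM, nearest 79.4), Tat in Smyd3-ASO mouse 3 (975 CPM, nearest 485), Hgd in Smyd3-ASO mouse 6 (260.3 CPM, nearest 152) and Sdsl in control-ASO mouse 2 (16.3 CPM). Among the P133 mice, Hpd was highest in mouse 4 (491 CPM, nearest 244), Amdhd1 was highest in mouse 2 (78.4 CPM, nearest 57.4) and Cdo1 was lowest in mouse 1 (821 CPM, nearest 1099).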

How the results depend on the processing

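Scaling by library totals changed the most. Genes of the list that rose and fell then numbered 14 and 10 in control ASO over untreated (with 10723 of all genes called), 23 and 5 in Smyd3-ASO over untreated, and 20 and 5 in P133 over untreated (7292 of all genes called), and 8 rose in control ASO over P133. This follows the shift of all genes given above, and every call kept its side of the all-gene median. With 1 fit over the 4 groups, 17 rose in Smyd3-ASO over control ASO and 2 in P133 over untreated, which was also 2 without the filter on low counts. DESeq2 called 5 higher in control ASO over P133. Without the 3 low-Dbp mice, 0 rose in control ASO over untreated, 1 rose in Smyd3-ASO over untreated and 2 fell in Smyd3-ASO over control ASO. For the comparisons with Smyd3-ASO mice, Dbp level and group then cannot be told apart, as stated above. With only the 2 low-Dbp control-ASO mice, 0 rose in Smyd3-ASO over control ASO and 11 fell in control ASO over P133, and the genes called of all genes were 469 in Smyd3-ASO over control ASO, 4246 in control ASO over untreated and 2079 in control ASO over P133. The cause was not tested. The other counts stayed within 1.5 times their value.

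Leaving out 1 mouse at a time, genes of the list that rose numbered 0 to 1 in control ASO over untreated, 0 to 3 in Smyd3-ASO over untreated, 2 to 5 in P133 over untreated, 2 to 3 in control ASO over P133, 8 to 14 in Smyd3-ASO over control ASO. Those that fell numbered 33 to 38 in control ASO over untreated, 24 to 28 in Smyd3-ASO over untreated, 19 to 27 in P133 over untreated, 14 to 22 in control ASO over P133, 3 to 6 in Smyd3-ASO over control ASO. All genes called numbered 6208 to 6886 in control ASO over untreated, 6434 to 7502 in Smyd3-ASO over untreated, 3977 to 4947 in P133 over untreated, 3137 to 4318 in control ASO over P133, 3233 to 4446 in Smyd3-ASO over control ASO. The count that rose moved by over 1.5 times in 3 comparisons. In control ASO over untreated it was 0 in edgeR's test (1 at an unadjusted p under 0.05) without any one of untreated mice 1, 3 or 4 or control-ASO mice 1 or 2. In Smyd3-ASO over untreated it was 1 without any one of untreated mice 1, 2, 3 or 5 or Smyd3-ASO mouse 2, and 0 without Smyd3-ASO mouse 1 or 4 (4 and 3 at an unadjusted p under 0.05). In P133 over untreated it was 2 without P133 mouse 2.

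Replicate numbers do not pair the mice: the correlation of the deviations of same-numbered mice from their group means ran from -0.157 to 0.142. With the replicate number as a block, 3092 of all genes were called in Smyd3-ASO over control ASO, 5712 in control ASO over untreated, 6986 in Smyd3-ASO over untreated, 4377 in P133 over untreated and 2543 in control ASO over P133. In that fit 1 gene of the list fell in Smyd3-ASO over control ASO and 1 rose in control ASO over P133.

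Under library totals 54 changes turned sign, with the median of all genes. Their log2 changes became, in control ASO over untreated, Ftcd 0.17, Hal 0.37, Gstz1 0.27, Aldh6a1 0.76, Gpt 0.16, Asl 0.30, Agxt 0.60, Acmsd 0.22, Ivd 0.10, Tdo2 0.64, Cth 0.62, Aldh4a1 0.14, Aass 0.059, Fah 0.17, Gpt2 0.82, Bckdhb 0.50, Cdo1 0.11, Prodh2 0.77, Kmo 0.52, Hibch 0.13, Dmgdh 0.049, Bhmt2 0.13, Gls2 0.24, Nags 0.34, Bhmt 0.094; in Smyd3-ASO over untreated, Ftcd 0.89, Slc25a13 0.25, Hal 0.35, Gstz1 0.41, Glud1 0.64, Gpt 0.31, Hgd 0.31, Gldc 0.63, Agxt 0.55, Ivd 0.60, Aldh4a1 0.54, Aass 0.79, Fah 0.34, Amt 0.38, Cdo1 0.23, Prodh2 0.72, Hibch 0.77, Dmgdh 0.29, Nags 0.016, Ass1 0.13; in P133 over untreated, Hal 0.12, Glud1 0.52, Cps1 0.057, Ivd 0.51, Aldh4a1 0.079, Fah 0.032, Otc 0.013, Bhmt2 0.19, Nags 0.47.

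Depth limits the P133 mice most, whose totals are the lowest. Thinning every mouse to 4556484 counts left each count of genes above within 1.5 times its value.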
